A study of Homo sapiens with 2 samples.

Results

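Chromosome 17 carried 3368 of the 47810 S9.6 peaks in the deposited list. They were chosen as every peak whose sequence name was 17, with no use of signal, and made up 7.36% of the peaks on chromosomes 1 to 22 and X. They came from A549, a human lung cancer cell line, in its wild-type form and with no treatment named in the labels. R-loops were profiled by CUT&Tag, in which an antibody brings a transposase to its target and nearby DNA is cut and tagged for sequencing. The labels name 2 libraries, 1 made with S9.6 and 1 with non-specific IgG, of which only the first is described and the second, IgG, was not used here. With 1 S9.6 library there was no replicate, so no test was made. The bulk library pools many cells, so a signal in few cells and a weak signal in many cannot be told apart.

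An R-loop forms when RNA pairs with the DNA strand it was copied from and leaves the other DNA strand single. The S9.6 antibody recognises such hybrids, and R-loops are known from active promoters, gene ends, tRNA genes and other repeated, highly transcribed genes. Chromosome 17 is a gene-rich chromosome that holds BRCA1 and ERBB2 as well as clusters of keratin, chemokine, myosin and homeobox genes.

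The promoters of 4 genes with some of the highest peaks at a protein-coding gene are shown to let the DNA under the signal be read, and the promoters of 2 genes without a peak stand beside them. The latter 2, from the myosin and keratin associated protein clusters, were picked after their values were seen. Each run is the 300 bases from 250 before to 50 after the RefSeq start in GRCh38.p14, 5′ to 3′ on the gene's strand. Capitals mark matches to 3 motifs. The GC box was searched as GGGCGG and, for the opposite strand, its complement CCGCCC. The CCAAT box was searched under its own letters and, for the opposite strand, as ATTGG. The TATA motif was searched as TATAAA and, for the opposite strand, in the complementary form TTTATA. Matches to different motifs do not overlap in the windows shown.
NFE2L1, chr17:48048109-48048408, plus strand: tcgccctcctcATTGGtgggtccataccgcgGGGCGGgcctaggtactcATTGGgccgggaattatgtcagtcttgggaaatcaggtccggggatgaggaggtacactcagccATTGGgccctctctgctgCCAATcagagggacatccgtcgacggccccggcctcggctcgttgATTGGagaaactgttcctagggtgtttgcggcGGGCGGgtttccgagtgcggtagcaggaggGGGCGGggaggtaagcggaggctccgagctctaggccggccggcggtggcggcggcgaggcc
ALKBH5, chr17:18183578-18183877, plus strand: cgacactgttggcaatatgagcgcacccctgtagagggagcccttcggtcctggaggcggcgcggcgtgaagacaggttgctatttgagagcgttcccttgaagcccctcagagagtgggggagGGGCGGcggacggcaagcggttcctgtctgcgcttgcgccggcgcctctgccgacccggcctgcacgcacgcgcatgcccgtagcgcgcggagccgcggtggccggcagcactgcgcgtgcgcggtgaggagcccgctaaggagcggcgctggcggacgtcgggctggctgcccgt
DRC3, chr17:17972563-17972862, plus strand: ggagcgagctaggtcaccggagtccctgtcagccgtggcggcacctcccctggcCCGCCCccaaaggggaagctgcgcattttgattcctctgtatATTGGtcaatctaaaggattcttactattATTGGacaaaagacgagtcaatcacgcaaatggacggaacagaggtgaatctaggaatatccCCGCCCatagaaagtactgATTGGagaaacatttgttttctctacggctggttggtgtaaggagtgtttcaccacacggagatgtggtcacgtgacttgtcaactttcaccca
PHF12, chr17:28951469-28951768, minus strand: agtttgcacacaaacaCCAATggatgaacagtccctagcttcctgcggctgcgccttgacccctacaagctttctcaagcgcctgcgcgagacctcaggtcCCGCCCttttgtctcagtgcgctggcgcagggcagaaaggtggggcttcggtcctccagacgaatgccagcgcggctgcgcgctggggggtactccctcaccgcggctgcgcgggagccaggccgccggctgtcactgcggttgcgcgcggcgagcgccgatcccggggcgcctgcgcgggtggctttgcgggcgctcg
MYH1, chr17:10518493-10518792, minus strand: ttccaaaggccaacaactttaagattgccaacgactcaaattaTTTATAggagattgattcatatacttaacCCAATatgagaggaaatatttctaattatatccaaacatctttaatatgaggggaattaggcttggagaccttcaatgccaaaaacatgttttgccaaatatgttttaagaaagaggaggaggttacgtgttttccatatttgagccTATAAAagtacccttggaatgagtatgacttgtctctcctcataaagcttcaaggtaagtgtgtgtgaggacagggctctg
KRTAP1-1, chr17:41041401-41041700, minus strand: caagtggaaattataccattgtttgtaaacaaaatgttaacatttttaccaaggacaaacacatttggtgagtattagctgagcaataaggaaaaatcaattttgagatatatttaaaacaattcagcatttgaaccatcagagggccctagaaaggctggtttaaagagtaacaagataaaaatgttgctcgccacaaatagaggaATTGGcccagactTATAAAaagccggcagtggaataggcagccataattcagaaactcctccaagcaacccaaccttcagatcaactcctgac

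The NFE2L1 window, upstream of a transcription factor of the proteasome stress response, held 3 GC boxes and 5 CCAAT boxes at 65.7% G+C. Its peak, chr17:48047579-48049231, reached a maximum coverage of 19 and covered the whole window. ALKBH5 encodes an RNA demethylase that removes N6-methyladenosine. Its window held 1 GC box and no CCAAT box at 71.0% G+C under a peak with a maximum of 16. The DRC3 window lies between 2 genes that point away from each other, DRC3 and TOM1L2. It held 2 GC boxes and 3 CCAAT boxes at 50% G+C under a peak with a maximum of 16. PHF12 encodes a PHD finger protein of a corepressor complex, and its window held 1 box of each of those kinds at 68.7% G+C. None of the 4 held a TATA motif. The MYH1 window, of a skeletal muscle myosin, held 2 TATA motifs, 1 CCAAT box and no GC box at 36.3% G+C. That of KRTAP1-1, a hair shaft protein, held 1 TATA motif, 1 CCAAT box and no GC box at 37.3% G+C. Among the 1142 promoter windows of protein-coding genes on chromosome 17, 60.4% held a GC box, 34.6% a CCAAT box and 10.8% a TATA motif. Over the 22132 windows of chromosomes 1 to 22 and X the shares were 56.3%, 34.6% and 9.46%. A motif match is a description of these letters and no evidence that a factor binds there.

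The 3368 peaks were narrow and mostly low. Their median width was 695 bp, with quartiles of 592 and 875 bp and a range of 68 to 5498 bp. Total signal, the coverage summed over a peak as the authors' peak caller gave it, had a median of 1034, with quartiles of 860 and 1393 and a range of 745 to 109441. Maximum coverage, the highest pile-up of fragments within a peak, had a median of 3. It stood at 2 in 1572 peaks (46.7%) and reached at least 5 in 394 peaks (11.7%, 95% Wilson interval 10.7 to 12.8%) and at least 10 in 56 (1.66%). Peaks on the other chromosomes had a median width of 685 bp, a median total of 983 and a median maximum of 2, and 9.37% of them reached at least 5. These differences were not tested. Intervals in this text cover counting error only and treat peaks or genes as independent. They may be too narrow, because neighbouring genes can share peaks and fragments without molecular identifiers may be copies of one another. Across the peaks, wider ones had larger totals (Spearman rho 0.67) but width and maximum went together only weakly (rho 0.17). These peaks share 1 library and 1 calling threshold, and genes and peaks are not replicates.

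Peaks were dense along most of chromosome 17, with 40.5 peaks per Mb. Only chromosome 19 (59.9 per Mb) and chromosome 22 (42.2 per Mb) had more, and the other chromosomes pooled had 14.4 per Mb. Chromosome 17 also had 14.0 protein-coding genes per Mb, against 6.38 elsewhere. Counted per protein-coding gene, it had 2.88 peaks, which put it at rank 9 of the 23 chromosomes, against 2.25 pooled over the others. The 3367 gaps between neighbouring peaks had a median of 8240 bp. Of these gaps, 446 were under 1000 bp and 147 were 100 kb or more.

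The short and the long arm had much the same peak density. The p arm, taken as the first 25 Mb, held 1044 peaks, or 41.8 per Mb, and 344 protein-coding genes, or 13.8 per Mb. The q arm held 2324 peaks, or 39.9 per Mb, and 825 genes, or 14.2 per Mb. The ratio of q to p arm density was 0.956 for peaks, with a counting interval of 0.888 to 1.03, and 1.03 for genes. Peak shape differed little between the arms: median width was 695.5 bp on the p arm and 694 bp on the q arm, median total signal 1050 and 1028, and median maximum coverage 3 on both. A maximum of at least 5 was reached by 11.97% of p arm and 11.6% of q arm peaks. In the counts of peaks in 84 windows of 1 Mb, the p arm ran from 0 to 111 with a median of 37 and the q arm from 3 to 134 with a median of 33.

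**Figure D1:**
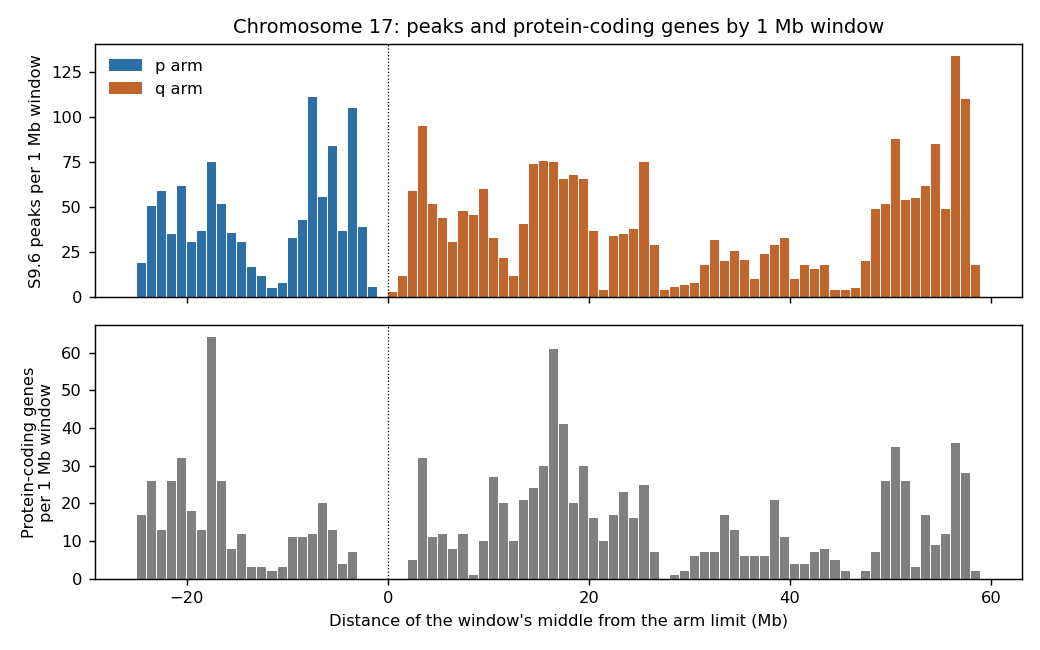
Number of S9.6 peaks (upper panel) and of protein-coding genes (lower panel) in each of the 84 windows of 1 Mb, against the distance of the window from the limit between the arms in Mb. The tallest bar, with 134 peaks, lies near the end of the q arm, and the window next to the arm limit on the p side has 0 peaks.

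The window with most peaks lay near the end of the long arm, at 81 to 82 Mb, with 134 peaks and 36 protein-coding genes. Its highest boundary peaks were at P4HB, a protein disulfide isomerase of the endoplasmic reticulum (maximum 14), and between ACTG1, cytoplasmic gamma actin, and FSCN2, a fascin (9). The latter is 1 peak, chr17:81513500-81514745, within 1000 bp of both genes. The neighbouring 82 to 83 Mb held 110 peaks. It was led at 9 by CENPX, a centromere and DNA repair protein, and LRRC45, genes less than 1000 bp apart that can share a peak. Within it, the 100 kb from chr17:82000001-82100000 held 30 peaks, the most of any 100 kb bin, across a stretch with the fatty acid synthase gene FASN and, counted by the middle of the gene, 8 protein-coding genes in all. Of the 5 windows with most peaks, 2 lay on the proximal short arm. There 17 to 18 Mb held 111 peaks and 12 genes, led by the peak shared by DRC3 and TOM1L2 (16) and that at COPS3 (10), a subunit of the COP9 signalosome. The window 21 to 22 Mb held 105 peaks and 7 genes, led by MAP2K3, a kinase of the p38 pathway, TMEM11 and USP22, each at 11. The other was 28 to 29 Mb, with 95 peaks and 32 genes, where PHF12 (16), the kinase gene NLK (14) and NEK8 (9) led.

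Windows with more protein-coding genes had more peaks, with a Spearman rho of 0.69 and a Pearson r of 0.61 over 84 windows. On the p arm rho was 0.57 over 25 windows, and on the q arm it was 0.74 over 59. Peaks with a maximum of at least 5 gave 0.62, and peaks whose summit lay away from gene boundaries still gave 0.59. The windows share the library, its depth and the calling threshold, so these values are descriptions. The same rho on the other 22 chromosomes ran from 0.32 to 0.84 with a median of 0.65, and 8 of them exceeded chromosome 17. Peak width did not follow gene density, with a rho of 0.04 for the median width of 78 windows with at least 5 peaks, and median total signal gave 0.23.

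The rise held from class to class of gene density. Windows with no protein-coding gene had a median of 5 peaks, those with 1 to 4 genes 14.5, those with 5 to 9 genes 26.5 and those with 10 to 19 genes 37. Windows with 20 to 29 genes had a median of 52 and the 9 windows with 30 or more had 75. On the other chromosomes the medians of the same classes were 2, 5, 10, 21, 34.5 and 55, so chromosome 17 had the higher median in each of the 6 classes, a difference that was not tested. Peaks per gene went the other way, from 7.31 in windows with 1 to 4 genes to 2.04 in those with 30 or more. Median width stayed between 689 and 708 bp in all 6 classes. The share of summits at a gene boundary went from 2.90% in windows without a protein-coding gene to 32.8% in the densest class.

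**Figure D2:**
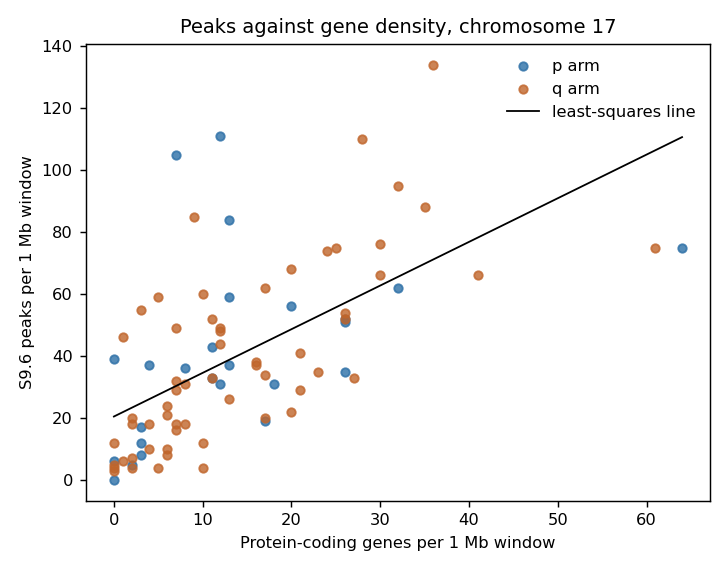
Peaks per 1 Mb window against protein-coding genes per window on chromosome 17, 1 point for each of 84 windows, coloured by arm, with the least-squares line (intercept 20.5 peaks, slope 1.41 peaks per gene). Points rise with gene number but scatter widely, and the windows with 64 and 61 genes both have 75 peaks and lie under the line.

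Several windows stood far from that line. The 2 richest in genes lay below it: 7 to 8 Mb had 64 genes and 75 peaks where the line gives 110.6, and 41 to 42 Mb, with much of the keratin cluster, had 61 genes and 75 peaks where it gives 106.4. They differed in how many genes had a peak at a boundary, defined as at least 1 base of a peak within 1000 bp of either end of the gene: 43 of 64 in the first and 19 of 61 in the second. Over chromosome 17 this share was 54.7%. Few peaks for their genes were also found at 46 to 47 Mb (10 genes, 4 peaks) and at 36 to 37 Mb (20 genes, 22 peaks). Far above the line were 21 to 22 Mb and 17 to 18 Mb, with 74.6 and 73.6 peaks more than it gives. Windows with more genes were also above it: 81 to 82 Mb (36 genes) by 62.8 peaks, 82 to 83 Mb (28 genes) by 50.1 and 19 to 20 Mb (13 genes) by 45.2. Window 79 to 80 Mb had 9 genes and 85 peaks, an excess of 51.8. With 1 gene and 46 peaks, 33 to 34 Mb had a smaller excess of 24.1.

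The last 2 windows contain very long genes with many peaks. RBFOX3, a neuronal splicing factor, had 54 peaks over its 576-kb span, and ASIC2, an acid-sensing ion channel, had 53 over 1144 kb. ASIC2 had none at a boundary, and the highest at a boundary of RBFOX3 was 2. SDK2, a cell adhesion protein, and SEPTIN9, a septin of the cytoskeleton, had 27 each, and GAS7 had 23. Per 100 kb these are 9.37 peaks for RBFOX3, 4.63 for ASIC2, 8.71 for SDK2, 12.3 for SEPTIN9 and 7.99 for GAS7, beside 4.05 for the whole chromosome. ASIC2 was thus close to the chromosome's own rate.

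Long stretches without a peak occurred both where genes are absent and where they are many. The longest, chr17:23190818-25074348, spans 1884 kb with no annotated gene and crosses the arm limit near the centromere. The second, chr17:46194158-46973138, spans 779 kb with 8 protein-coding genes. Another, chr17:35795737-36326470, spans 531 kb with 19 protein-coding genes, among them the chemokine genes CCL3, CCL4 and CCL5. The list also holds peaks on alternate and patch sequences named for chromosome 17, with ranges of numbers that overlap both of these gene-bearing gaps. Their part in the gaps was not tested. Of 833 bins of 100 kb, 166 (19.9%) had no peak.

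Summits clustered at the boundaries of genes. Each summit, the middle of the region of maximum coverage, was placed in 1 of 3 classes over protein-coding and lncRNA genes: within 1000 bp of an end, inside, or between genes. At a boundary lay 751 summits (22.3%, 95% Wilson interval 20.9 to 23.7%), where 7.73% of the bases lie, a ratio of 2.88. Inside genes lay 53.5% of summits and 55.8% of bases, and between genes 24.2% of summits and 36.5% of bases. By arm the shares were 21.5% of summits at a boundary on the p arm and 22.7% on the q arm. On the other chromosomes 19.9% of summits lay in the 4.38% of bases at boundaries, a ratio of 4.53. Higher peaks lay at boundaries more often: 14.1% of peaks with a maximum of 2, 18.4% of those at 3, 32.3% of those at 4 and 59.2% of those at 5 to 9. Among the 56 peaks at 10 or more the share was 44.6%, with several of the highest over snRNA genes or in gene-free sequence.

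Of the 1169 protein-coding genes, 640 (54.7%, 95% Wilson interval 51.9 to 57.6%) had a boundary peak. The share was 53.5% on the p arm and 55.3% on the q arm. Over chromosomes 1 to 22 and X it was 40.1%, and over all but chromosome 17 it was 39.1%. Protein-coding genes of chromosome 17 were shorter, with a median span of 15.6 kb against 24.9 kb on the others. Boundaries of protein-coding and lncRNA genes took 7.73% of its bases against 4.38%. The comparison of shares was not adjusted for either. A peak anywhere over the gene or within 1000 bp of it was found for 859 genes (73.5%), and 144 genes (12.3%) had a peak at both ends. Genes often shared peaks: 698 peaks lay at a boundary of a protein-coding gene, and 165 of these lay at boundaries of at least 2 such genes. Those 165 had a median maximum of 4, against 3 for the 533 at 1 gene and 2 for peaks at none. The boundary share changed less with gene density than the peaks did, from 38.9% in windows with 1 to 4 genes through 52.3%, 55.9% and 51.3% to 59.6% in the densest class. Of other classes of gene, lncRNA genes had a boundary peak in 33.3% of 718, miRNA genes in 34.5% of 110, snoRNA genes in 32.1% of 53 and pseudogenes in 12.8% of 533. The windows at both ends of a short gene overlap, so less sequence was searched for it than for a long gene. Shares of classes and groups, here and below, are thus taken over unlike lengths.

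Peaks at boundaries were mainly peaks at starts. Strand was known for 824 of the protein-coding genes, those in the promoter table. A peak lay within 1000 bp of the start in 419 of them (50.85%, 47.4 to 54.3%) and of the end in 176 (21.4%, 18.7 to 24.3%). In 491 genes of 10 kb or more whose end has no other protein-coding start within 2000 bp, the shares were 51.3% at starts and 20.6% at ends. On the p arm 55.9% of 245 starts had a peak and on the q arm 48.7% of 579. Starts had higher peaks, with 204 of 419 reaching a maximum of 5 against 26 of 176 at ends. The 345 genes without a strand had a boundary peak less often, 45.8% against 58.5%, so these counts describe the 824 and not all genes.

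**Figure D3:**
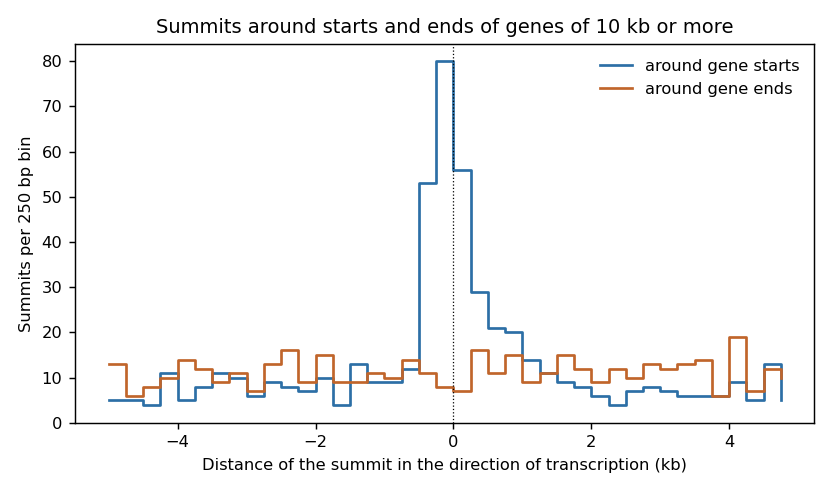
Number of summits per 250-bp bin from 5 kb before to 5 kb after the start or the end of 538 genes with a span of 10 kb or more, in the direction of transcription. Around starts the count peaks at 80 in the 250 bp just before the start and 56 in the 250 bp after it, and around ends it stays between 6 and 19 in every bin.

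The summits leaned to the upstream side of the start. In the profile of summits around starts, the 500 bp before it held 53 and 80 summits in bins of 250 bp, and the 500 bp after it held 56 and 29. Bins from 750 to 1000 bp after the start still held 20, while the bin from 1000 to 750 bp before it held 9. Upstream counts include peaks at genes that share a promoter region and run the other way.

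Most genes of the housekeeping, RNA processing, proteasome and ribosomal protein groups had boundary peaks. The groups below were chosen with earlier results of these data known, and each is set beside the 54.7% of all protein-coding genes on chromosome 17. In the housekeeping and metabolism group all 19 genes had one, led by KPNB1, the importin beta nuclear transport receptor (maximum 20, chr17:47649179-47650154), P4HB (14) and ACTG1 (9). Among transcription and RNA processing genes 18 of 21 had one. ALKBH5 led at 16, and the RNA helicases DDX42 and DDX5 and the splicing factor SRSF2 reached 8. These peaks of 8 also lie at an end of CCDC47, CEP95 and MFSD11, in that order. Heights at other listed genes can be shared with a neighbour too. DDX52, the spliceosome core gene PRPF8 and the elongation factor gene SUPT4H1 had none at a boundary, though SUPT4H1 had 1 peak over the gene. Of the proteasome subunits 6 of 7 had one, led by PSMD11 (8), PSMD3 (7) and PSMC5 (5), with none at the activator PSME3. Ribosomal protein genes had one in 5 of 6, with RPL23A at 6, RPL26 at 4, RPL19 and RPL27 at 3 and none at RPL23. RPL23 had 1 peak over the gene away from its boundaries.

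Genes of cell division, genome stability and signalling were mixed. In the cell cycle group 6 of 8 had a boundary peak, with CDC27, an anaphase-promoting complex subunit, and SKA2, of the kinetochore, at 6 and SPAG5, of the spindle, at 5. CDC6, a replication licensing factor, and CDK5RAP3 had none at a boundary but 1 peak each over the gene. Genome stability genes had one in 8 of 13. PPM1D, a protein phosphatase of the DNA damage response, reached 6, and TOP2A, DNA topoisomerase II alpha, reached 5. The recombination genes EME1, RAD51C and RAD51D had none at a boundary, though RAD51D had 3 peaks over the gene. In growth signalling 13 of 19 had one, with FLCN, folliculin, and SOCS3, an inhibitor of cytokine signalling, at 6. The receptor tyrosine kinase gene ERBB2, the adaptor genes CRK and GRB2, the corepressor gene NCOR1 and the ubiquitin ligase gene RNF43 followed at 5. The peak at ERBB2 also lies at an end of PGAP3, and that at SKA2 at an end of PRR11. AXIN2, MAP2K6 and PRKAR1A had none at a boundary, though MAP2K6 had 2 peaks over the gene and PRKAR1A had 3. RARA, the retinoic acid receptor alpha gene, and RPTOR, of the mTOR complex, also had none at a boundary but had 16 and 17 peaks over the gene. Per 100 kb these are 33.0 for RARA and 4.03 for RPTOR, the latter close to the rate of the whole chromosome.

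Clusters of genes used by particular tissues had boundary peaks in a smaller share of their genes than the 54.7% of the chromosome. None of the 6 skeletal muscle myosin genes had a boundary peak, and only MYH3 and MYH13 had a peak anywhere over the gene. Keratin associated protein genes, which encode hair proteins, had one in 1 of 34, at KRTAP4-16 with a maximum of 2. Type I keratin genes had one in 7 of 28, led by KRT16 (4), KRT13 (3) and KRT36 (3), with none at KRT10, KRT14 or KRT17. CC chemokine genes had one in 2 of 18, CCL2 (3) and CCL8 (2), with none at CCL1, CCL11 or CCL13. The gene table places CCL3L1 and CCL4L1 far from the rest of that cluster, and both had no peak there. These positions may belong to an alternate sequence, and the 1169 protein-coding genes and the window counts may hold other genes placed in this way, whose number was not determined. Olfactory receptor genes had one in 2 of 13, OR1A2 and OR3A3 at 2. The growth hormone cluster had one in 1 of 5 (CSH2, 3), the ABCA transporter cluster in 1 of 5 (ABCA5, 5) and the CD300 receptors in 2 of 8 (CD300LG at 5, CD300LD at 2). The HOXB genes, transcription factors of body patterning, stood nearer to the chromosome's share with 5 of 10, led by HOXB2 at 4 and HOXB3, HOXB5 and HOXB9 at 3. The near-identical TBC1D3 and LRRC37 copies had one in 5 of 15, but reads from such copies can be placed at the wrong one, so which member carried the signal is uncertain. Members of a cluster are neighbours and can share peaks, so they are not independent.

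**Figure D4:**
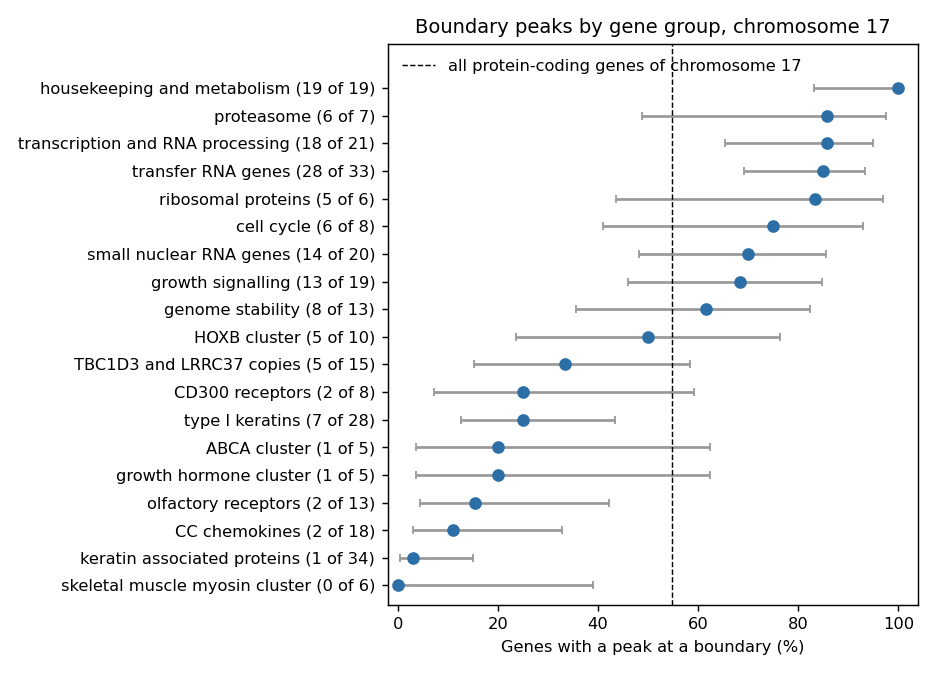
Share of genes with a boundary peak in 19 gene groups of chromosome 17 (points, percent, with 95% Wilson intervals) beside the share of all its protein-coding genes (dashed line, 54.7%). The housekeeping and metabolism group sits at 100%, and the myosin, keratin associated protein and CC chemokine clusters sit at 11.1% or less. The groups were chosen with earlier results of these data known.

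By maximum coverage, the 6 highest peaks on chromosome 17 did not lie at protein-coding genes, and the next place was tied at 20 between a peak without a gene and the one at KPNB1. The highest of all, chr17:22521302-22521598, reached a maximum of 775 over 297 bp with a total of 102211, 2.23% of the summed signal of the chromosome. It lies at MTCYBP13, a nuclear pseudogene copy of the mitochondrial cytochrome b gene. A neighbouring peak at 18 lies at MTRNR2L1, related to the mitochondrial 16S ribosomal RNA. A peak of 68 bp, the narrowest, reached 15 at chr17:53106316-53106383 over MTCO1P40, a copy of a mitochondrial oxidase gene. Reads of mitochondrial origin and reads of these copies can be alike, and where the reads came from was not tested. Peaks at 59 (chr17:26603451-26604748), 53 and 49 (chr17:26618862-26620407) had no annotated gene within 1000 bp. The one at 53, chr17:26880450-26885947, was the widest peak (5498 bp) and had the largest total, 109441. Other peaks without a gene reached 20 at chr17:25920024-25920377 and 16 at chr17:23016044-23016912. In all, the 22 to 27 Mb stretch held 60 peaks, no protein-coding gene, 9 of the 56 peaks at 10 or more and 7.06% of the summed signal. This stretch surrounds the arm limit near the centromere, and the handling of reads with several matches is not given. Whether its high peaks are signal from single sites was not tested.

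The snRNA genes next to RNU2-1 formed the other concentration of high peaks. RNU2-1 encodes U2, the spliceosomal RNA that pairs with the branch point, and is a tandem array in the human genome. The gene table lists 13 snRNA genes in chr17:43233790-43300231, a span of 66.4 kb. A peak lay over each of the 13. The highest peak over the gene had a maximum of 45 at LOC124904138, 35 at LOC124904137 and 18 at LOC124904141, and 4 at RNU2-1 itself. The stretch held 28 peaks with a median maximum of 6 and a median width of 859 bp, and 3.02% of the chromosome's summed signal. Because the copies are nearly identical, how the signal divides among them is uncertain. Outside the array, 1 of the 7 other snRNA genes of the chromosome had a boundary peak, LOC124904122 at 4.

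**Figure D5:**
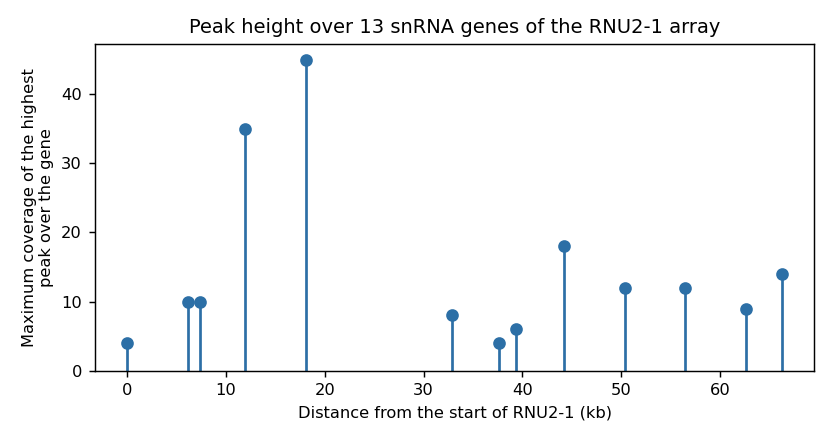
Maximum coverage of the highest peak over each of 13 snRNA genes, against the distance of the gene from the start of RNU2-1 in kb. Values run from 4 to 45, and the highest 2 belong to neighbouring genes within 20 kb of RNU2-1.

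Transfer RNA genes, transcribed by RNA polymerase III, had a boundary peak in 28 of 33 (84.8%), beside 54.7% of protein-coding genes on the chromosome. In the cluster at chr17:8119155-8227064 it was 15 of 18, with a highest maximum of 7, and elsewhere on the chromosome 13 of 15. TRQ-TTG1-1 reached 12 and TRC-GCA4-1 reached 11, and TRC-GCA2-3 and TRC-GCA2-4 both had 10. The peak of 11 also lies at an end of the protein-coding gene LASP1 and the peak of 10 at an end of PLXDC1, so these heights cannot be credited to the tRNA genes alone. Lower peaks are shared too, such as that of 4 at TRN-GTT2-5 and PSMB3 and that of 5 at TRI-AAT5-5 and BORCS6. How many of the 28 genes share a peak with a protein-coding gene was not counted. No peak was found at TRG-CCC3-1, TRI-AAT4-1 or TRR-CCG2-1. Neighbouring genes can fall under the same peak, so 15 genes of the cluster do not mean as many separate peaks.

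At protein-coding genes the highest peaks lay mostly at starts, often between 2 genes that run apart. KPNB1 (20) was followed by the peak shared by COPZ2, of the COPI vesicle coat, and NFE2L1 (19), whose promoter is shown above, and then by those at TOM1L2 and DRC3, ALKBH5 and PHF12, each at 16. The peak shared by B9D1, of the ciliary transition zone, and MAPK7, a kinase, reached 15.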

How the data were processed

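CUT&Tag was made with S9.6 in wild-type A549 cells. The deposited peak list gives each peak's total signal and maximum coverage, signal values written by the authors' peak caller and not scaled to depth as far as the values show. The layout is that of SEACR. The submitters' processing notes name SEACR 1.3, deepTools 3.5.2, Bowtie2 2.4.2, fastp 0.23.2, bedtools 2.30.0 and SAMtools 1.9, with no roles, and the build GRCh38. The calling threshold, the use of IgG as control and the handling of duplicates and of reads with several matches are, in the sources used here, not given. Depth is unknown, and signal under the threshold is not seen.

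Starts were made 1-based. Windows of 1 Mb took peaks by their middle, and the arms meet at 25 Mb. Gene spans came from RefSeq GRCh38.p14. Strand and promoters came from a RefSeq table that matched 824 of 1169 protein-coding genes, too few for a comparison of G+C content between gene sets. Wilson intervals (95%) and correlations were computed with Python 3.11.15, pandas 2.3.3 and SciPy 1.17.1. The overlap code was tested on simulated peaks. Named genes were, in each list, the 3 with the highest boundary peak and up to 3 without one in alphabetical order, with genes at the highest peaks, genes with most peaks and leading genes of the 5 densest windows. Other names were chosen after their values were seen, and 1 gene that the rule named is not reported here. The members and the 19 gene lists were chosen with earlier results of these data known. Alternatives changed the height limit, boundary distance, windows and overlap.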

Additional observations from a re-analysis of the deposited data

Results flagged for a closer look

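Outside chromosome 17 itself, the list held 143 peaks on 14 alternate and patch sequences named for that chromosome, a signal in data that the comparisons above do not use. CHR_HSCHR17_7_CTG4 had 63 of them, with positions from 35809002 to 38600926, and chromosome 17 had 48 peaks in the same range of numbers. CHR_HSCHR17_2_CTG5 had 19, from 45408237 to 46719692, where chromosome 17 had 6. Whether these sequences are numbered like the chromosome is not stated in the sources used here.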

How the results depend on the processing

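The share of summits at a gene boundary was 29.5% when only peaks reaching a maximum of 3 were kept and 57.1% for a maximum of 5, and 15.5% and 31.7% with boundaries of 500 and 2000 bp. The share of protein-coding genes with a boundary peak was 44.8% and 23.4% with the same height limits, 47.9% and 63.7% with the same distances, and 49.2% where the summit itself had to lie within 1000 bp. For gene starts alone it was 50.85% and for ends alone 21.4%, over the 824 genes with a strand, settings chosen after seeing the data. The ratio of q to p arm density ranged from 0.922 to 0.956, and the rank correlation with gene number from 0.614 (total signal per window) to 0.706. Settings also chosen after seeing the data gave a ratio of 0.904 (without 22 to 27 Mb) and a correlation of 0.742 (without 15 to 22 Mb). Of 17 groups of protein-coding genes, chosen with earlier results of these data known, 7 lay above the share of all genes. The count was 7 again with a maximum of at least 3. With peaks anywhere over the gene it was 6, as genome stability fell below the share. These counts use the same peaks and lists, so they lend no support to the split between groups. No paired analysis was possible because there is 1 S9.6 library. That single library gives no measure of variation between cultures. Maximum coverage of 2 or 3 in most peaks limits how well low genes can be ranked.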
